A study of Mus musculus with 4 samples.

Results

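The genes described here are 10 heat shock protein genes, Hspb1, Hsp90aa1, Hsp90ab1, Hspa1a, Hspa1b, Hspa8, Hsph1, Dnajb1, Hspd1 and Hspe1, taken by gene name from the 32285 genes counted in 4 spatial transcriptomes of mouse pancreas. The choice was by name and used no threshold on a measured value, though earlier results of these data were known, and all 10 had at least 1 unique molecular identifier (UMI, a tag that counts 1 captured molecule) in every section, over spots with at least 500 UMIs. Each section came from its own Pdx1-Cre mouse, 2 labelled wild type (Ehmt2+/+) and 2 labelled knockout (Ehmt2 fl/fl). All 4 mice were C57Bl/6, 4 weeks old, fasted for 12 h, given 8 hourly injections of caerulein at 50 µg/kg, and killed 18 h after the first dose, so caerulein-induced pancreatitis was shared by both groups and no untreated section was analysed here. Pdx1-Cre acts in pancreatic epithelium, and fibroblasts, vessels and immune cells keep Ehmt2, which encodes a histone H3 lysine methyltransferase. The libraries count probe pairs ligated on fixed RNA, so a level is a probe's count and was never compared between genes.

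Heat shock proteins are chaperones that bind unfolded or newly made proteins. HSP70 proteins hold exposed stretches of a client and release them in an ATP cycle that J-domain proteins start and nucleotide exchange factors finish, HSP90 proteins complete the folding of kinases and receptors, and small heat shock proteins keep clients soluble without ATP. In acinar cells of the exocrine pancreas, which make very large amounts of secreted enzymes, the cytosolic set works beside a separate set in the endoplasmic reticulum. Stress activates heat shock factor 1, which binds repeats of GAA and TTC in the promoters of the inducible genes, while Hspa8 and Hsp90ab1 are made in unstressed cells too. The 10 genes are grouped here as cytosolic heat shock proteins, but Hspd1 and Hspe1 encode the chaperonin and cochaperonin of the mitochondrial matrix.

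The promoters are shown because they were searched for the repeats that heat shock factor 1 binds. Another reason is that Hspa1a and Hspa1b, and Hspd1 and Hspe1, share promoter sequence. The windows came from RefSeq on build GRCm38.p6 and ran from 250 bases before to 50 bases after an annotated start site. A heat shock factor site was searched as GAANNTTC or TTCNNGAA, each of which reads the same on both strands, and neighbouring matches may share a GAA or a TTC. Of the 10 genes, 7 had an entry, and 6 of these 7 held a match in at least 1 window. Counted by window, 7 of 10 member windows (70%) held a match, against 15.1% of all 32851 windows. Several members' windows overlap one another, so the windows are not independent. The stretches below are written 5′ to 3′ on the gene's own strand, in lower case with the matches in capitals. Hspb1 lies at chr5:135887919-135889563 (+), and its stretch at chr5:135887759-135887918 covers the 160 bases before the start site. Hspa1a lies at chr17:34969190-34972156 (-), and its stretch at chr17:34972157-34972316 covers the same 160 bases on the minus strand. Hspe1 lies at chr1:55088132-55091307 (+), and its 30-base stretch at chr1:55088053-55088082 falls inside an annotated first exon of Hspd1 (chr1:55077835-55088243, -), because these genes lie head to head and share the region.
Hspb1: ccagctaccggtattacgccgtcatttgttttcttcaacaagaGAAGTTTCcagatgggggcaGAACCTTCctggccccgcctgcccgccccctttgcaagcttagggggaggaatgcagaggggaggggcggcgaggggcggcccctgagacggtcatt
Hspa1a: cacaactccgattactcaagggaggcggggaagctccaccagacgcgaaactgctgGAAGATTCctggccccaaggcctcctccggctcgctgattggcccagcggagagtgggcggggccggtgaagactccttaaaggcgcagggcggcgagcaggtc
Hspe1: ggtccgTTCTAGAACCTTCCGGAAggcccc
The Hspb1 stretch held 2 separate matches, the Hspa1a stretch held 1, and the Hspe1 stretch held a run of 3 that overlap. The same run stands before a second start site of Hspd1, read from the other strand. Hspa1b (chr17:34956436-34959238, -) matched Hspa1a at 296 of the 300 window bases (98.7%). Hsph1 (chr5:149614287-149636376, -) held 3 matches in each of its windows, on both sides of the start site, and the 2 windows of Dnajb1 (chr8:83608193-83612653, +) held none. A match is a description of the sequence and not a measured binding site.

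The transcripts of several members also overlap in sequence with other genes, which limits what a probe can tell apart. Of the 50-base stretches of the longest annotated Hspa1a transcript, 58.8% also occur in Hspa1b, and 62.3% of those of Hspa1b occur in Hspa1a. The counts of this pair are therefore uncertain where they were split. Pseudogene or other transcripts share 51.6% of such stretches of Hspb1, 58.5% of Hsp90aa1 (chr12:110690605-110702728, -), 51.4% of Hspa8 (chr9:40800984-40810087, +) and 44.8% of Hspd1. The share was 4.49% for Hsp90ab1 (chr17:45567775-45573271, -), 8.2% for Hspe1, 0.407% for Dnajb1 and 0 for Hsph1. Where the probes lie within these transcripts was not analysed here.

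The 4 sections were unequal before any comparison. Over spots with at least 500 UMIs they held 6144 and 7871 spots (Ehmt2+/+) and 6483 and 6462 spots (Ehmt2 fl/fl), with 43784930, 7845575, 6643747 and 7938386 UMIs. Ehmt2+/+ replicate 1 stood apart with a median of 6328 UMIs per spot, against 874 to 1113 in the others. Digestive enzyme genes, the defining markers of acinar cells, took 59.7% and 49.9% of the UMIs in the Ehmt2+/+ sections and 20.9% and 20.2% in the Ehmt2 fl/fl sections. Olfactory receptor genes, taken as genes the pancreas lacks, had a median level of 0.251 counts per 1000000 UMIs (CPM) in Ehmt2+/+ replicate 1 and 4.97, 8.13 and 12.6 CPM in the others, so a background level differed between sections by more than any member did. Other marker lists moved with genotype as well. The summed level of 14 macrophage markers was 164 and 261 CPM in the Ehmt2+/+ sections and 2143 and 1542 CPM in the Ehmt2 fl/fl sections, and that of 14 fibroblast markers was 555 and 759 against 2753 and 2520 CPM. Of these cell type lists, acinar markers were measured at 26 of 31 genes and every macrophage and fibroblast marker had a UMI in every section. Ehmt2 itself had 865 and 31 UMIs in the Ehmt2+/+ sections and 67 and 96 in the Ehmt2 fl/fl sections. In the last 3 of these sections 34.4% to 72.1% of olfactory receptor genes were as high, so the targeted gene does not check the labels. Y-linked genes had 0 or 1 UMI in both Ehmt2+/+ sections and 33 to 139 UMIs in both Ehmt2 fl/fl sections, so sex and genotype cannot be told apart. In sections of tissue, fewer cells of a type and less RNA per cell cannot be told apart either.

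The small heat shock protein Hspb1 is described first, because it alone among the members had its highest CPM in Ehmt2+/+ replicate 2. The other members did not share one order of sections. It had 174 and 360 CPM in the Ehmt2+/+ sections and 188 and 146 CPM in the Ehmt2 fl/fl sections, and these overlapped. Counted against 1000000 UMIs of all genes except the digestive enzymes (non-enzyme CPM), it had 433 and 720 in Ehmt2+/+ and 237 and 183 in Ehmt2 fl/fl, and no Ehmt2 fl/fl section reached either Ehmt2+/+ section. It was the 1 member lower in Ehmt2 fl/fl without overlap on that scale, as were 5.03% of the 20381 genes with a UMI, and in CPM 0 members were, against 0.814% of genes. Digestive enzymes aside, 1977 genes stood well above the olfactory receptor level in every section. The share lower among those was not counted, so these percentages do not show how rare the Hspb1 order is among well-measured genes. Its relative Cryab, another small heat shock protein, was likewise highest in Ehmt2+/+ replicate 2, at 170 CPM against 38.5 to 50.0 CPM in the other 3 sections.

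The HSP90 genes did not share one pattern. Hsp90ab1, the constitutive cytosolic HSP90, had 858 and 615 CPM in Ehmt2+/+ and 1234 and 772 CPM in Ehmt2 fl/fl. Hsp90aa1, the inducible form, had 41.5 and 20.6 CPM in Ehmt2+/+ and 36.6 and 32.2 CPM in Ehmt2 fl/fl. Both ranges overlapped, and the Ehmt2+/+ sections differed from each other by as much as the groups did.

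The HSP70 genes were read at very different precision. Hspa8, the constitutive HSP70 that also strips clathrin from vesicles, had 178 and 76.2 CPM in Ehmt2+/+ and 234 and 131 CPM in Ehmt2 fl/fl. Hspa1a, a stress-inducible HSP70, had 1.90 and 7.90 CPM in Ehmt2+/+ and 13.2 and 18.1 CPM in Ehmt2 fl/fl, from 62 to 144 UMIs a section. In the 3 shallow sections 11.4% to 14.5% of olfactory receptor genes were as high as Hspa1a, so its level there was close to background. Its near-copy Hspa1b had 6.69 and 16.6 CPM in Ehmt2+/+ and 29.5 and 26.3 CPM in Ehmt2 fl/fl, and at most 1.06% of olfactory receptor genes reached it. The order of the sections in both inducible genes was that of the background except between the Ehmt2 fl/fl sections in Hspa1b.

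With the inducible HSP70 genes, the partners and the mitochondrial pair made up 6 members that stood higher in CPM in Ehmt2 fl/fl without overlap, as did 90.9% of all genes. Dnajb1, the J-domain protein that works with inducible HSP70, had 46.2 and 92.7 CPM in Ehmt2+/+ and 179 and 136 CPM in Ehmt2 fl/fl. Hsph1, a nucleotide exchange factor of the HSP70 superfamily, had 19.6 and 21.0 CPM against 44.6 and 34.5 CPM. Hspd1 had 85.7 and 55.2 CPM against 140 and 135 CPM, and Hspe1 had 72.8 and 104 CPM against 216 and 189 CPM. Against the UMIs of genes other than digestive enzymes these 4 genes drew together: Dnajb1 had 115 and 185 against 226 and 171 non-enzyme CPM, Hsph1 48.7 and 42.0 against 56.4 and 43.3, Hspd1 213 and 110 against 177 and 169, and Hspe1 181 and 207 against 273 and 236. Of the 4, Hspe1 alone kept groups that did not overlap on that scale, and with Hspa1a it was 1 of 2 members that were higher in Ehmt2 fl/fl there, as were 55.3% of all genes. Enzyme genes took a larger share of the UMIs in Ehmt2+/+, and that share sits in the denominator of the first scale.

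**Figure D1:**
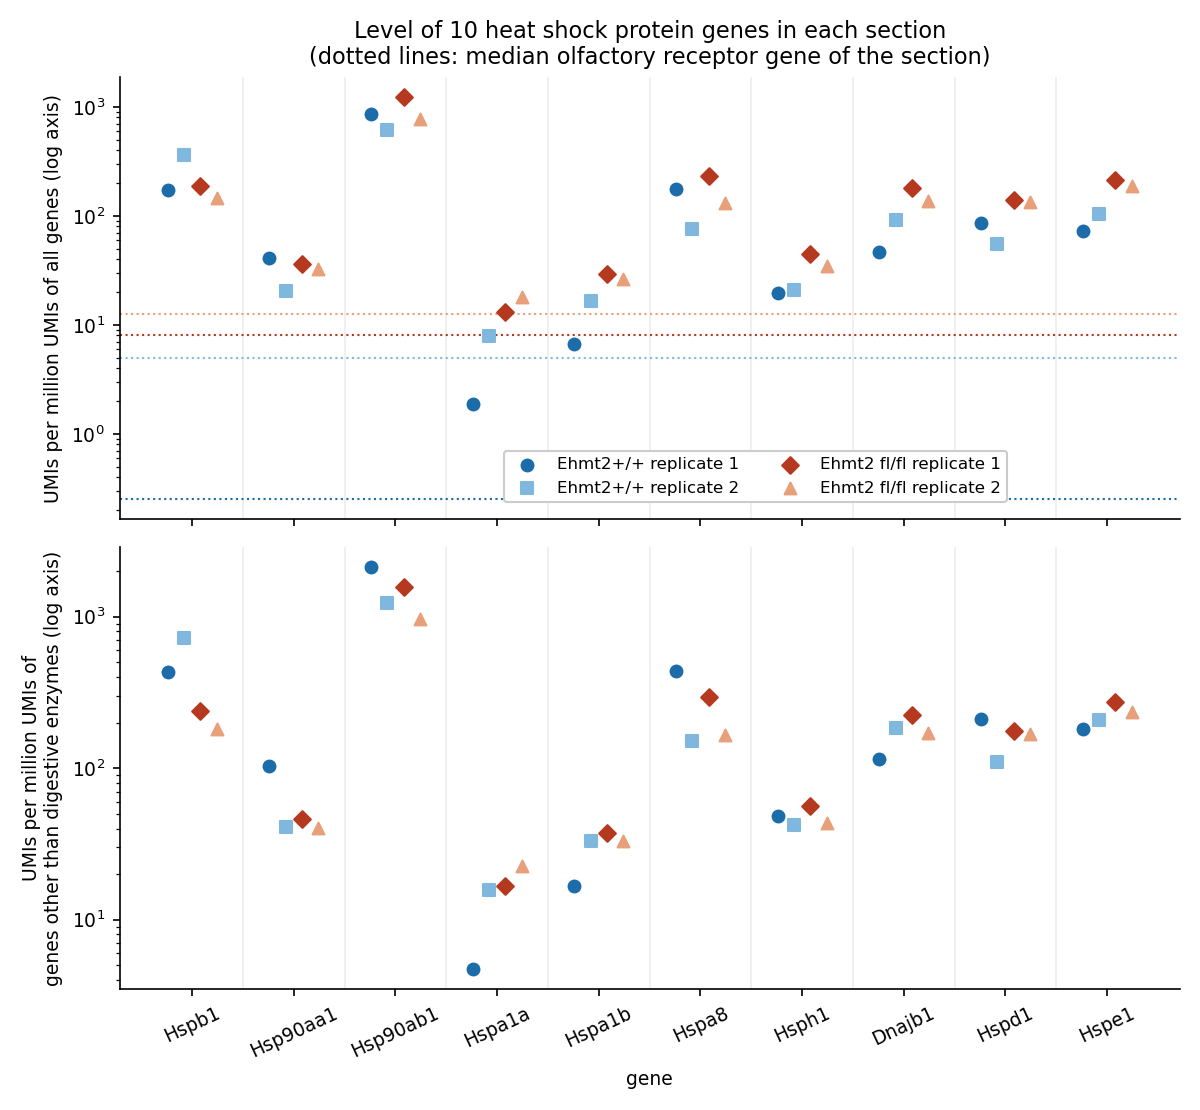
Level of each gene in each section (x axis, gene; y axis, CPM on a log axis), as a share of all UMIs above and of UMIs outside the digestive enzyme genes below, with 1 point per section and, above, dotted lines for the median olfactory receptor gene of each section. Hspb1 separates the genotypes only in the lower panel, where the Ehmt2+/+ sections stand at 433 and 720 non-enzyme CPM and the Ehmt2 fl/fl sections at 237 and 183. Levels of different genes come from different probes and are not comparable.

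For Ehmt2 fl/fl against Ehmt2+/+, which asks whether loss of Ehmt2 in the epithelium changes the inflamed pancreas, the edgeR quasi-likelihood test called 0 of the 10 genes at an adjusted p under 0.05, and 0.11% of all 20053 genes tested. At an unadjusted p under 0.05 it counted 2 members, Hspb1 and Hsp90aa1, and 5.28% of all genes. The log2 fold change was -2.46 ± 1.17 (SE, n = 2 per group) for Hspb1 with an adjusted p of 0.863, and -2.18 ± 0.937 for Hsp90aa1 with an adjusted p of 0.798. The other 8 lay between -1.81 (Hspa8) and 0.14 (Hspa1a), and the median over the members was -1.19 beside 0.25 over all genes. The scaling decided the sign of most of them. Trimmed-mean (TMM) factors were 0.288 and 0.957 in Ehmt2+/+ and 1.71 and 2.13 in Ehmt2 fl/fl. With library sizes alone 9 of the 10 fold changes were above 0, the member median was 0.96 and the median of all genes was 1.70, and no member was called (1.99% of all genes were). With TMM factors taken only from 1977 genes well above the olfactory receptor level, a setting added after the data were seen, 4 were above 0, the member median was -0.14 and that of all genes 0.73. Hspb1 was then called lower, with a log2 fold change of -1.71 ± 0.299 and an adjusted edgeR p of 0.0286. Under that scaling 0.957% of genes were called, and 0.379% were called lower. The Hspb1 value was below 0 under all 3 scalings, -2.46, -1.71 and -0.68, and below the all-gene median in each.

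That comparison rested on few sections, and its values moved when 1 of them was left out. Such a fit leaves 1 section in a genotype, so only its fold changes are read. Without Ehmt2+/+ replicate 1, Hspb1 had a log2 fold change of -2.05. Over the 4 fits that leave out 1 section Hspa8, Hspd1 and Hspe1 changed sign, and Hspb1 stayed between -2.91 and -2.05. Hsp90aa1 (-3.13 to -0.219), Hsp90ab1 (-2.61 to -0.222), Hspa1b, Hsph1 and Dnajb1 also stayed below 0, and Hspa1a stayed above 0.

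Ratios within the member set need no scaling, since the UMIs of both genes come from the same section. The ratio of Hspb1 to Hspd1 UMIs was 2.04 and 6.53 in Ehmt2+/+ and 1.34 and 1.08 in Ehmt2 fl/fl. That of Hspb1 to Hspe1 was 2.40 and 3.47 against 0.871 and 0.773, and that of Hspb1 to Dnajb1 was 3.78 and 3.89 against 1.05 and 1.07. None of these 3 ratios overlapped between genotypes, and the exact permutation test gave p = 0.33 (two-sided) for each, the smallest that 2 against 2 sections allow. As a background, 12% of 11163 genes were lower in ratio to Hspd1 without overlap, 18.9% in ratio to Hspe1 and 10.8% in ratio to Dnajb1. Against Hspa8 the Hspb1 ratio was 0.980 and 4.73 in Ehmt2+/+ and 0.802 and 1.11 in Ehmt2 fl/fl, which overlapped, while 1.95% of genes were lower in ratio to Hspa8 without overlap. Hsp90ab1 to Hspd1 did not overlap, at 10.01 and 11.14 in Ehmt2+/+ against 8.816 and 5.715 in Ehmt2 fl/fl. Nor did Hspb1 to Hsp90ab1, at 0.2032 and 0.5865 against 0.1521 and 0.1888. The exact permutation test gave p = 0.33 for both. How many genes were lower in ratio to Hsp90ab1 was not counted. The ratio of Hspd1 to Hspe1, whose products form 1 complex, was 1.18 in Ehmt2+/+ replicate 1 and 0.532, 0.649 and 0.716 in the other sections, so the deep section departed from the rest and the genotypes did not separate. The ratio of Hspa1a to Hspa1b was 0.283 and 0.477 against 0.449 and 0.689.

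The same contrast was read as the share of spots with at least 1 UMI after each spot was thinned to 500 UMIs. Hspb1 was found in 7.91% and 16.4% of Ehmt2+/+ spots and in 9.30% and 7.13% of Ehmt2 fl/fl spots, and Hsp90ab1 in 34.7% and 26.1% against 44.8% and 32.5%. For 6 members, Hspa1a, Hspa1b, Hsph1, Dnajb1, Hspd1 and Hspe1, every Ehmt2 fl/fl section was above every Ehmt2+/+ section, but this was so for 87.8% of all 20312 genes, and 0 members were lower in Ehmt2 fl/fl without overlap, as were 0.945% of genes. The counting intervals (exact binomial, 95%) were narrow: the share of Hspe1 spots in Ehmt2 fl/fl replicate 1 was 10.9%, with bounds of 10.1% and 11.7%. They cover counting error only. When spots were thinned to 500 UMIs outside the digestive enzyme genes, which left 5594 and 2910 Ehmt2+/+ spots and 6050 and 5979 Ehmt2 fl/fl spots, Hspb1 stood at 19.3% and 30.0% against 11.4% and 8.90%, and Hsp90aa1 at 4.49% and 2.30% against 2.23% and 1.74%. These 2 members were lower in Ehmt2 fl/fl without overlap, as were 5.11% of all genes, and Hspa1a and Hspe1 were higher without overlap, as were 55% of all genes. For Hsp90aa1 the counting intervals of Ehmt2+/+ replicate 2 (1.79% to 2.91%) and Ehmt2 fl/fl replicate 1 (1.87% to 2.64%) overlapped. In non-enzyme CPM the Hsp90aa1 sections of the genotypes overlapped as well. Each exact permutation test without overlap gave p = 0.33. Hspa1a reached 0.081% and 0.470% against 0.586% and 0.898% of spots at 500 UMIs, where the median olfactory receptor gene reached 0.0163% and 0.267% against 0.416% and 0.665%, so in the shallow sections its share was near that of background.

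**Figure D2:**
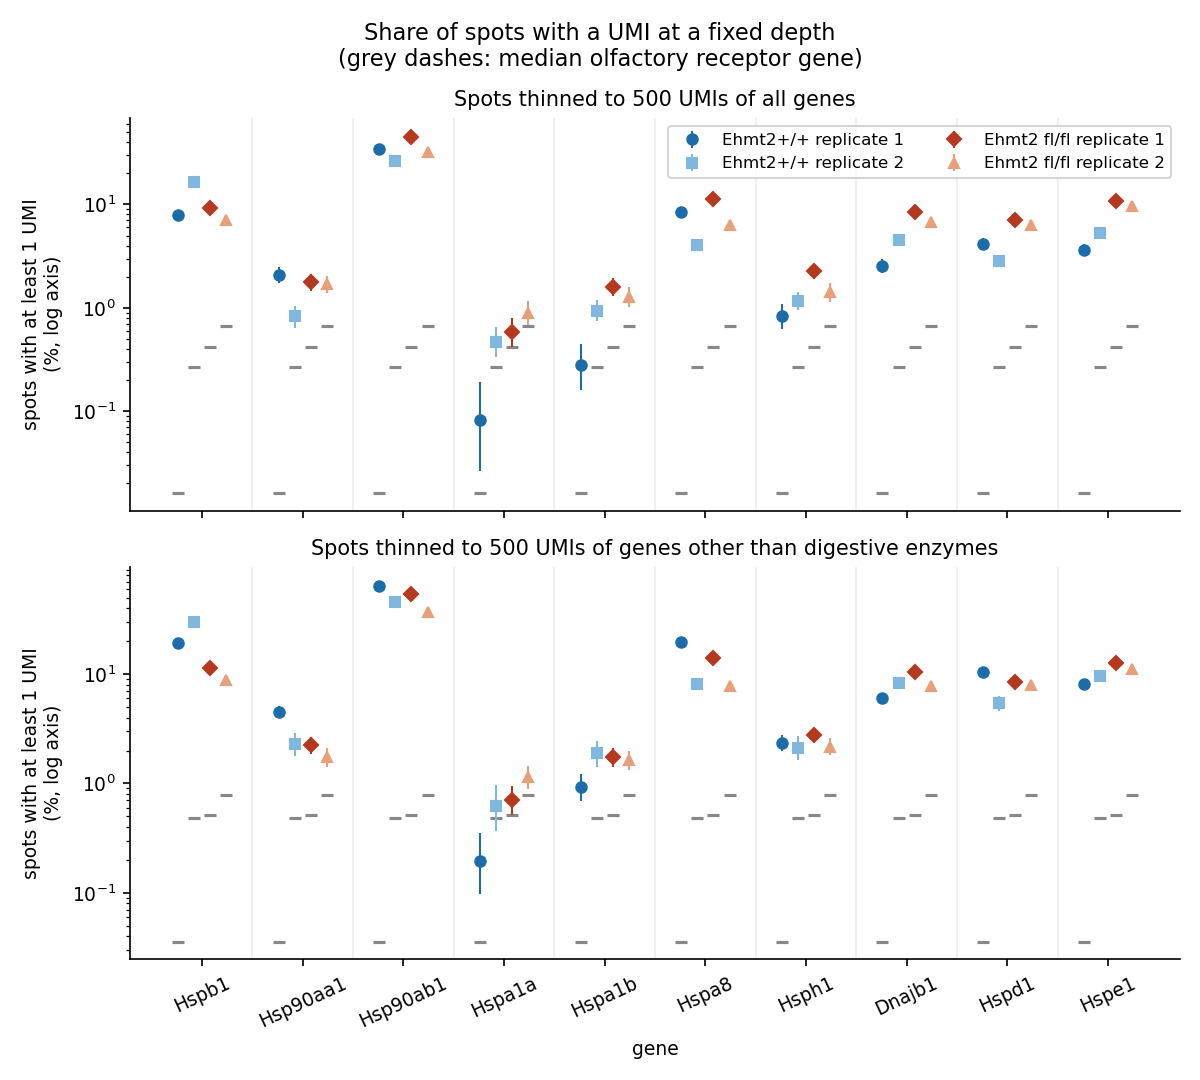
Share of spots with at least 1 UMI of each gene (x axis, gene; y axis, percent on a log axis), after thinning spots to 500 UMIs of all genes (above) or of genes other than digestive enzymes (below), with 1 point per section, bars for 95% exact binomial intervals and grey dashes for the median olfactory receptor gene. The Hspb1 points overlap between genotypes above and part below, 19.3% and 30.0% against 11.4% and 8.90%.

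Within each section, spots were ranked by the share of their UMIs in digestive enzyme genes and cut into 3 equal classes, the lowest called enzyme-poor and the highest enzyme-rich. Enzyme genes took 54.4% and 37.0% of UMIs in the enzyme-poor spots of the Ehmt2+/+ sections and 62.4% and 57.2% in the enzyme-rich ones, against 8.72% and 6.50% and 31.9% and 31.2% in Ehmt2 fl/fl. Hspb1 had 395 and 504 non-enzyme CPM in enzyme-poor spots of Ehmt2+/+ and 195 and 139 in those of Ehmt2 fl/fl. In enzyme-rich spots it had 441 and 909 in Ehmt2+/+ and 285 and 225 in Ehmt2 fl/fl, so on this scale it was higher in the enzyme-rich class of every section. Hsp90ab1 was higher there too on this scale, at 2015, 1037, 1398 and 710 non-enzyme CPM in enzyme-poor spots and 2155, 1379, 1724 and 1186 in enzyme-rich spots of the 4 sections. These 2 members were lower in enzyme-poor spots in 4 of 4 sections, as were 4.68% of 11164 genes with at least 10 UMIs in every class. In CPM the order was not kept: Hspb1 had 180, 317, 178 and 130 CPM in enzyme-poor and 166, 389, 194 and 155 CPM in enzyme-rich spots, higher in enzyme-poor spots in 1 section, and Hsp90ab1 had 919, 653, 1276 and 664 against 811, 590, 1175 and 816 CPM, higher in enzyme-poor spots in 3 of 4. The other members did not order the classes in this way. Hspd1 had 232, 120, 174 and 154 non-enzyme CPM in enzyme-poor and 203, 104, 165 and 169 in enzyme-rich spots, and Hspa8 had 428, 149, 285 and 146 in enzyme-poor and 438, 147, 297 and 195 in enzyme-rich spots. Hspa1a and Hspa1b went the other way in 4 of 4 sections, as did 46% of those genes, Hspa1b at 18.7, 49.5, 47.0 and 35.9 in enzyme-poor and 15.6, 24.3, 31.4 and 30.3 in enzyme-rich spots. The median olfactory receptor gene also went that way, from 0.371, 9.41, 11.1 and 17 CPM in enzyme-poor to 0.212, 2.75, 5.55 and 8.46 CPM in enzyme-rich spots, and its part in the Hspa1a and Hspa1b values was not tested.

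With section as a block and TMM scaling, 7 of the 10 genes were lower in enzyme-poor than in enzyme-rich spots (edgeR, adjusted p under 0.05), while 17.8% of all 19555 genes were called in either direction and 14.4% were called lower. Digestive enzymes aside, 1444 genes stood well above the olfactory receptor level in every class, and the share lower among those was not counted. Enzyme-poor spots were also shallower, with medians of 3078, 696, 855 and 917.5 UMIs against 8489, 1131, 1144 and 1400. With each spot thinned to 500 UMIs 1 member was called (5.16% of all genes). With 1 section left out 1 to 7 members were called, beside 8.23% to 16.7% of all genes. Of the 7 in the main fit the largest was Hspb1, at a log2 fold change of -1.05 ± 0.196 and an adjusted edgeR p of 0.00016. Hsp90ab1 followed at -0.88 ± 0.269, Hspa8 at -0.61 ± 0.179, Hsp90aa1 at -0.50 ± 0.150, Hspe1 at -0.49 ± 0.161, Hsph1 at -0.47 ± 0.145 and Dnajb1 at -0.45 ± 0.155. Hspd1 at -0.40 ± 0.159, Hspa1b at 0.01 ± 0.153 and Hspa1a at 0.33 ± 0.200 did not pass. The median of the members was -0.48, beside 0.02 over all genes. Here too the scaling set the sign: with library sizes alone 8 members were called higher in enzyme-poor spots, along with 89.1% of all genes, and the all-gene median moved to 0.93. Hspb1 at -0.13 and Hsp90ab1 at 0.04 were the 2 members not called under library sizes. With TMM factors from genes above background, Hspb1 (-0.56 ± 0.118, adjusted edgeR p of 0.00061) and Hsp90ab1 (-0.38 ± 0.145) were called lower, Hspa1a (0.83) and Hspa1b (0.50) were called higher, and the remaining 6 lay between -0.13 and 0.08. Under that scaling 47.8% of all genes were called, 44.9% higher and 2.85% lower, and the median of all genes was 0.53.

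**Figure D3:**
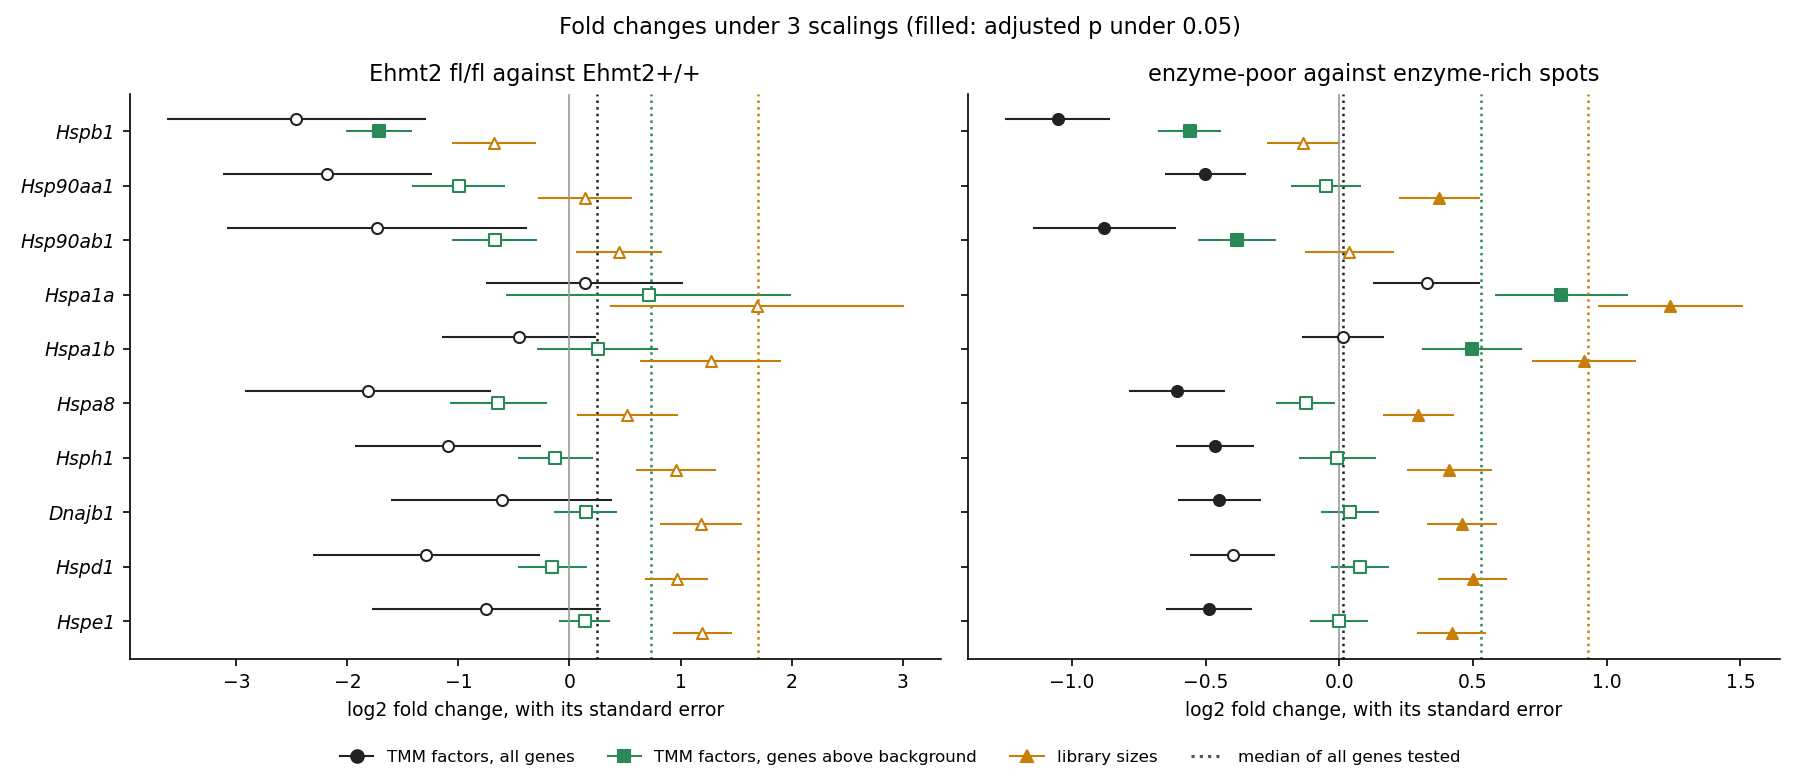
Log2 fold changes (x axis) of each gene (y axis) with their standard errors in both comparisons, under 3 scalings of the same counts, with filled points for an adjusted p under 0.05 and dotted lines for the median of all genes tested. Hspb1 lies to the left of 0 under every scaling in both panels, from -2.46 to -0.68 between genotypes and from -1.05 to -0.13 between spot classes, while every other member lies right of 0 under at least 1 scaling in each panel.

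The enzyme gradient was also followed in 10 equal bins of spots per section, ranked on enzyme share. Enzyme genes took 47% of UMIs in the lowest and 64% in the highest bin of Ehmt2+/+ replicate 1, and 24% and 60% in replicate 2. In Ehmt2 fl/fl they took 3.6% and 39% in replicate 1 and 1.6% and 38% in replicate 2, so the bins span unlike ranges. From the lowest to the highest bin, Hspb1 in non-enzyme CPM changed by a fold of 1.24 and 2.28 in Ehmt2+/+ and 2.18 and 1.75 in Ehmt2 fl/fl. Hsp90ab1 changed by a fold of 1.21 and 1.74 in Ehmt2+/+ and 1.49 and 2.57 in Ehmt2 fl/fl. These were the 2 members that were over 1.2 times higher in the highest bin of all 4 sections on this scale. The share of all genes that were so was not counted. In CPM the folds were 0.841, 1.2, 1.38 and 1.09 for Hspb1 and 0.819, 0.917, 0.940 and 1.60 for Hsp90ab1, so they were above 1 in 3 sections for Hspb1 and in 1 for Hsp90ab1. Hsp90aa1 had folds of 0.951, 0.966, 1.01 and 1.06, and Dnajb1 0.747, 0.986, 1.06 and 1.19. Hspd1 and Hspe1 had folds under 1 in both Ehmt2+/+ sections, 0.838 and 0.831 for Hspd1 and 0.679 and 0.898 for Hspe1, and over 1 in both Ehmt2 fl/fl sections, 1.06 and 1.13 for Hspd1 and 1.21 and 1.37 for Hspe1. On this scale the folds of Hsp90aa1 and Dnajb1 split the genotypes in the same direction. How many of all genes did so was not counted either. In CPM the folds were under 1 in all 4 sections, 0.567, 0.438, 0.674 and 0.709 for Hspd1. For Hspe1 they were 0.459, 0.473, 0.764 and 0.859. The test of the difference of the enzyme contrast between genotypes called 0 members, with an unadjusted p under 0.05 for 0 of them, and 0.394% of all genes by edgeR.

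**Figure D4:**
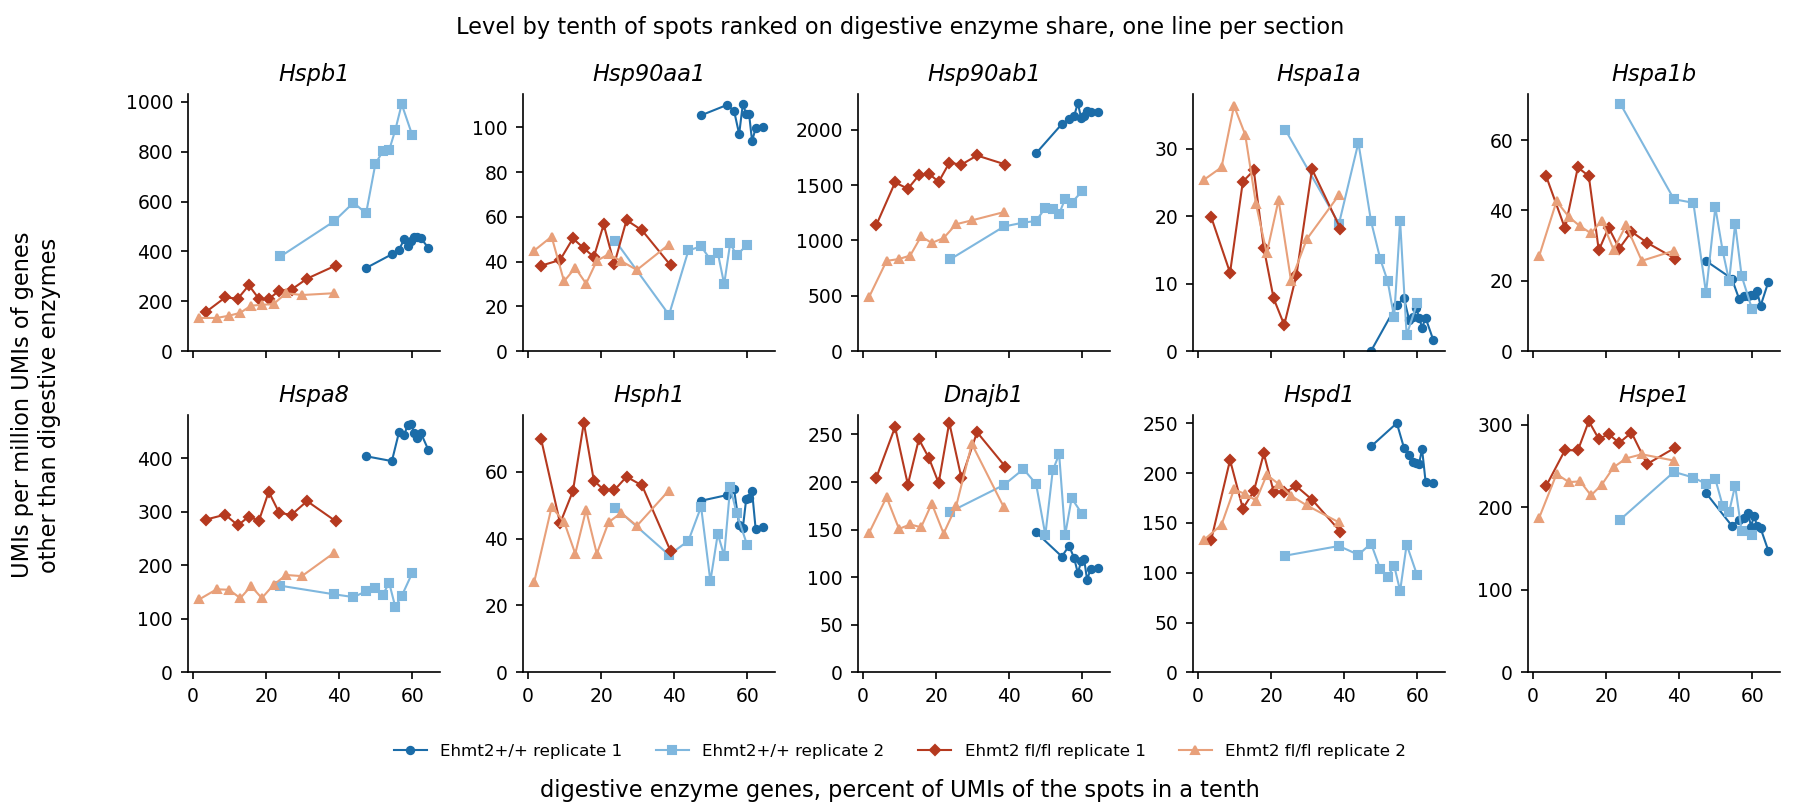
Non-enzyme CPM (y axis, from 0, its range set per gene) against the percent of UMIs in digestive enzyme genes (x axis) for 10 equal bins of spots, with 1 line per section. On this scale, though not in every section in CPM, Hspb1 and Hsp90ab1 are higher in the highest than in the lowest bin of every section, by folds of 1.24 to 2.28 for Hspb1. Where the enzyme shares of Ehmt2+/+ replicate 2 and Ehmt2 fl/fl overlap the Hspb1 lines of Ehmt2 fl/fl lie lower, which rests on 1 Ehmt2+/+ section. Ehmt2+/+ replicate 1 starts at 47.3%, above the highest Ehmt2 fl/fl bins (38.95% and 38.46%). The share of all genes in this order was not counted.

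The ratios between members gave the enzyme contrast without any scaling. Hspb1 to Hspd1 was 1.71, 4.19, 1.12 and 0.907 in the enzyme-poor spots of the 4 sections and 2.18, 8.77, 1.73 and 1.33 in the enzyme-rich spots. It was lower in enzyme-poor spots in 4 of 4 sections, by 0.65 ± 0.30 on the log2 scale (SD, n = 4), where 10.3% of 11163 genes were lower in ratio to Hspd1 in all 4 sections. The ratio of Hspb1 to Hspe1 was lower in 4 of 4 sections as well (6.6% of genes), that to Dnajb1 too (8.12%), and that to Hspa8 too (2.41%). The ratio of Hsp90ab1 to Hspd1 was lower in 4 of 4 sections, at 8.70, 8.62, 8.05 and 4.62 in enzyme-poor and 10.6, 13.3, 10.5 and 7.01 in enzyme-rich spots. The ratio of Hspb1 to Hsp90ab1 was lower in 3 of 4 sections.

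**Figure D5:**
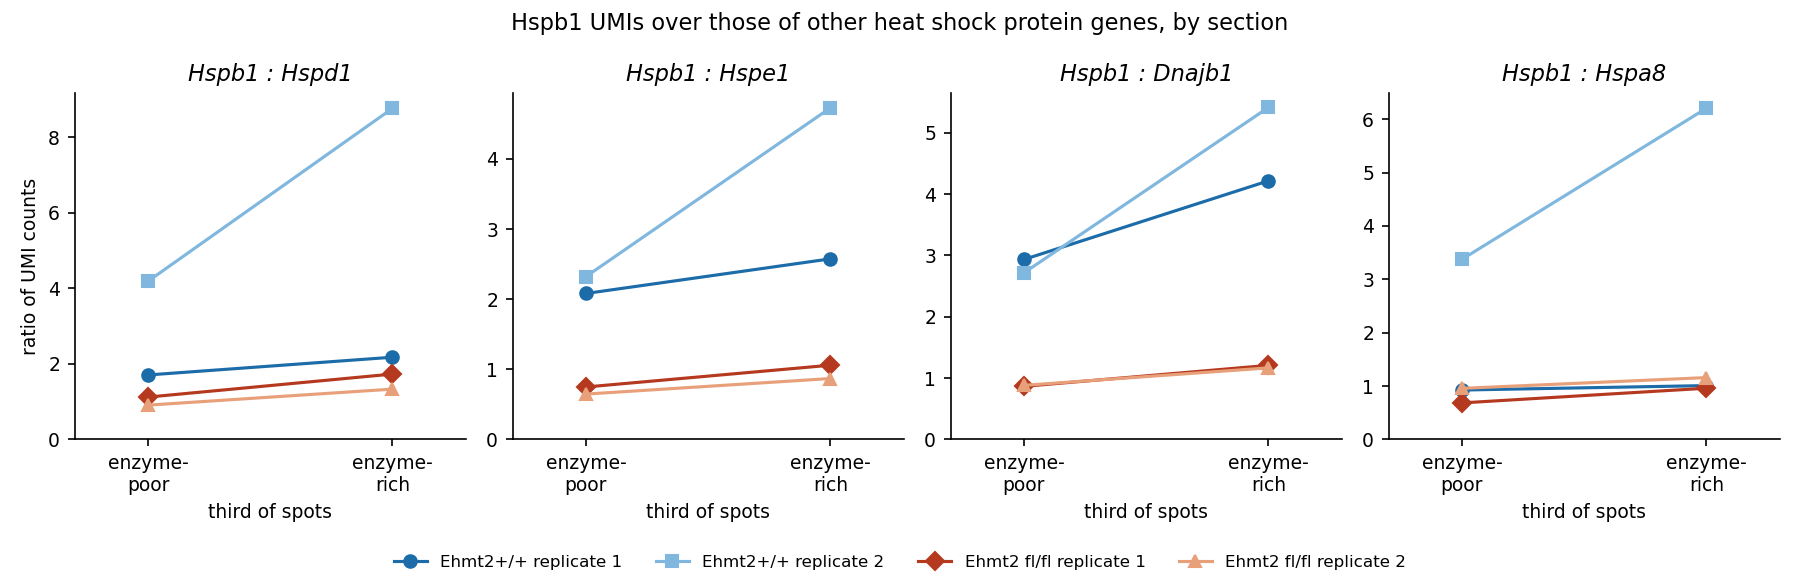
Ratio of Hspb1 UMIs to those of 4 other members (y axis, from 0) in the enzyme-poor and enzyme-rich spots (x axis) of each section, with 1 line per section. Every line rises from enzyme-poor to enzyme-rich, and in the panels for Hspd1, Hspe1 and Dnajb1 both Ehmt2+/+ sections lie above both Ehmt2 fl/fl sections within each class of spots. The share of all genes in that order within a class was not counted. The classes are not matched between genotypes: enzyme genes took 54.4% and 37.0% of UMIs in enzyme-poor spots of Ehmt2+/+, against 8.72% and 6.50% in Ehmt2 fl/fl.

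Regions rich in other cell types were compared with all other spots of the same section, using the 5% of spots with the highest share of UMIs in each marker list. Rich is thus relative to the section. Macrophage markers took 0.122% and 0.234% of UMIs in macrophage-marker-rich spots of Ehmt2+/+, and 0.189% and 0.135% in other spots of Ehmt2 fl/fl. In Ehmt2+/+ replicate 1 the macrophage-marker-rich spots had a median of 1306 UMIs against 6583, and the duct keratin-rich spots 1244 against 6568. The part of depth in these results was not tested. By edgeR 0 of the 10 members were called in islet hormone-rich spots (0.832% of all genes), duct keratin-rich spots (0.00509%), fibroblast matrix-rich spots (0.621%), macrophage-marker-rich spots (0.551%) and smooth muscle-rich spots (0.293%). At an unadjusted p under 0.05 the counts were 1, 0, 3, 2 and 4 members, beside 6.07%, 3.36%, 9.63%, 9.32% and 9.34% of all genes. With TMM scaling the fold changes of Hspb1 were -0.34, -0.40, -0.79, -0.83 and -0.60 on the log2 scale in these 5 regions. The medians of all genes were -0.18, -0.19, -0.18, -0.17 and -0.19. In CPM, Hspb1 was higher in 1 section in islet hormone-rich spots and in 1 section in duct keratin-rich spots. With the highest 10% of spots in place of 5%, Hspb1 (-0.67) and Hsp90ab1 (-0.59) were called lower in macrophage-marker-rich spots (adjusted edgeR p of 0.0262 and 0.0265), where 1.13% of all genes were called lower. The 10% setting was run with TMM scaling alone. At 5%, library sizes in place of TMM moved the genes called higher there from 0.0909% to 4.96%. Those called lower moved from 0.46% to 0.242%. The enzyme share of macrophage-marker-rich spots at 5% was 54.5% and 38.3% in Ehmt2+/+ and 10.1% and 8.28% in Ehmt2 fl/fl, against 59.8%, 50.4%, 21.4% and 20.7% in other spots, and its part in these values was not tested.

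Other chaperones were read from lists of the same network. In the genotype comparison no gene of the small heat shock proteins, HSP70 partners, HSP90 partners, CCT chaperonin, mitochondrial chaperones, heat shock factors or endoplasmic reticulum chaperones was called by edgeR, and at an unadjusted p under 0.05 it counted 1, 1, 0, 2, 0, 0 and 2 genes of these lists, which hold 9, 24, 12, 8, 8, 5 and 12 genes, beside 5.28% of all genes. In enzyme-poor against enzyme-rich spots with TMM scaling, where 14.4% of all genes were called lower, 7 of 8 CCT chaperonin genes, which fold actin and tubulin, were called lower, Tcp1 the most (-0.75) and then Cct2 (-0.65), Cct7 (-0.63) and Cct5 (-0.55). The 14.4% covers genes of every level, and the share among well-measured genes was not counted. Of 8 mitochondrial chaperones 6 were called lower, among them the protease Lonp1 (-0.99) and the exchange factor Grpel1 (-0.90). Of 12 HSP90 partners 6 were called lower, among them Fkbp4 (-0.83), Cacybp (-0.64) and the kinase cochaperone Cdc37 (-0.57). Of 24 HSP70 partners 3 were called lower, St13 (-0.73), Dnaja2 (-0.70) and Dnajb2 (-0.42). Of 9 other small heat shock proteins 2 were called lower, Cryab (-1.05) and Hspb8 (-0.51), and of 12 endoplasmic reticulum chaperones 3, Dnajc3 (-0.91), Hspa5 (-0.66) and Dnajb11 (-0.48). Of the 5 genes listed under heat shock factors 1 was called lower, Hsbp1 (-0.74), which encodes a binding protein of the factor and not a factor. With TMM factors from genes above background, 0 of 8 CCT genes, 2 of 8 mitochondrial chaperones and 1 of 12 HSP90 partners were called lower, and 7 HSP70 partners, 4 small heat shock proteins, 1 HSP90 partner and 1 endoplasmic reticulum chaperone were called higher. Under that scaling 44.9% of all genes were called higher and 2.85% lower. With library sizes alone all calls in these lists were higher, as were those of 88.6% of all genes.

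Immediate early genes, which respond to stress within minutes, are given beside the inducible members. Fos had 4.02 and 11.0 CPM in Ehmt2+/+ and 63.4 and 36.8 CPM in Ehmt2 fl/fl, Jun 107 and 178 against 534 and 463 CPM, and Atf3 13.2 and 20.8 against 67.9 and 75.2 CPM. All 10 genes of that list were higher in both Ehmt2 fl/fl sections than in both Ehmt2+/+ sections in CPM, as were 90.9% of all genes. By edgeR with TMM scaling 0 of the 10 were called between genotypes, with library sizes 7 were called higher (1.93% of all genes), and with TMM factors from genes above background 1 (0.578%). In enzyme-poor against enzyme-rich spots with TMM scaling, edgeR called Atf3 (-0.63), Egr1 (-0.57) and Ier2 (-0.48) lower, as it did 14.4% of all genes. In CPM these were higher in enzyme-poor spots in 3, 3 and 4 sections. Fos, Fosb, Dusp1 and Zfp36 were not called. In non-enzyme CPM they were higher in enzyme-poor spots in 4 of 4 sections, as were 46% of 11164 genes. The rest of that list was not. The difference of that contrast between genotypes was called for Ier3 in this list (-2.03, adjusted edgeR p of 4.27e-06), and for 0.394% of all genes. Hsf1, which encodes heat shock factor 1, had 13.8 and 20.0 CPM in Ehmt2+/+ and 36.3 and 37.3 CPM in Ehmt2 fl/fl, while its fold change with TMM scaling was -0.83 ± 0.79 (log2, adjusted edgeR p of 0.863).

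Finally, the genes whose level moved most like that of 5 members over 40 points (10 bins of enzyme share in 4 sections, centred within each section) were listed among 5834 genes by Spearman correlation, as a description over points that share libraries and depth. On the scale of non-enzyme UMIs, the profile of Hspb1 was closest to those of Tle5 (0.918), the ribosomal scaffold gene Rack1 (0.898), the colipase gene Clps (0.898), Naca (0.897) and the elongation factor gene Eef1a1 (0.894). Clps is among the digestive enzyme genes that ranked the bins, so its rise over them was set by the ranking and its place here is no finding. Hspd1 was closest to Plscr1 (0.740), Nfkbiz (0.721), Rrs1 (0.684), Caprin1 (0.671) and Gar1 (0.662). Hspa8 was closest to Sec31a (0.645), Cd24a (0.581), Adm2 (0.578), Krt20 (0.561) and Serpinb6a (0.559). Hsp90aa1 was closest to Ccdc85b (0.599), Mtus1 (0.519), Ano10 (0.503), Sri (0.494) and Rbm17 (0.489), and Hspa1a, which was too low to enter the search list itself, to Zfp955b (0.667), Dennd1b (0.634), Smarce1 (0.629), Samd4b (0.616) and Ablim1 (0.597). With all UMIs as the denominator Tle5 stayed first for Hspb1 at 0.622 but was followed by Paip2, Myo5c, Tceal9 and Krt19 in place of the other 4, and Plscr1 was first for Hspd1 at 0.905 with Rrs1 as the other gene kept, while the first gene for Hspa8 became Rpn1 at 0.791. Between single spots at 500 UMIs the 45 pairs of members gave Pearson correlations from -0.0228 to 0.0483, too weak in such sparse counts to be a finding.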

How the data were processed

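Paraffin sections were profiled by the authors on CytAssist Visium slides with mouse probes, and Space Ranger 2.0.1 assigned reads to the mm10 reference. What they deposited are UMI counts, whole numbers per feature and spot without normalization. The 304 deprecated features were left out. Spot barcodes (13898 of 14336 in all 4 sections) are slide positions, and tissue positions were not used here because the alignment files name no barcodes.

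Groups came from the labels. Counts were summed per section over spots with at least 500 UMIs, since spots are not replicates, giving 6643747 to 43784930 UMIs. The sums were tested in R 4.3.3 with edgeR 4.0.16 by the quasi-likelihood test with TMM factors and filterByExpr (minimum count 10), and p-values were adjusted over all genes by Benjamini-Hochberg. Section was a block between classes of spots. Alternatives were DESeq2 1.42.0, other scalings, filters, spot limits and classes, and leaving out sections. Intervals are exact binomial. Between genotypes a p-value measures the spread between these 4 mice. Between classes of spots the block removes that spread, and a p-value measures how the difference within a section varies over the 4 sections.

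The members and lists were chosen with earlier results of these data known. The text names all 10 members, up to 4 called genes per list with the largest fold change, and the 5 genes closest in profile to 5 members. Cryab and Hsf1 levels, and which immediate early genes are given, were chosen after their values were seen. Marker lists (acinar, islet, duct, fibroblast, macrophage, smooth muscle, adipocyte, blood, lymphoid) were summed per section. Islet markers had 802 to 6854 CPM, duct 3279 to 3970, smooth muscle 29.1 to 264, adipocyte 56.0 to 690, blood 40.9 to 174 and lymphoid 10.1 to 243, and Hba-a1 and 5 acinar genes had none.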

Additional observations from a re-analysis of the deposited data

How the results depend on the processing

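Replicate numbers came from accession order, so no paired analysis was possible because the numbers tie no sections together. Between genotypes the count of members called, 0, became 1 with TMM factors from genes above background and 1 with DESeq2 (Hspb1 in both), and 0 to 9 when 1 section was left out. The range of 0 to 9 comes from fits that leave 1 section in a genotype, so it is not read as a result. Its upper end came without Ehmt2+/+ replicate 2, where most of all genes were called too. Over all genes the 22 calls became 400 with library sizes, 192 with factors above background, 286 with DESeq2 and 3 with upper-quartile factors. Log2 fold changes that turned sign with library sizes were Hsp90aa1 0.143, Hsp90ab1 0.446, Hspa1b 1.27, Hspa8 0.52, Hsph1 0.96, Dnajb1 1.18, Hspd1 0.964 and Hspe1 1.2, with factors above background Hspa1b 0.253, Dnajb1 0.147 and Hspe1 0.137, with upper-quartile factors Hspa1b 0.039, and with DESeq2 Hspa1a -0.176. Leaving out 1 section gave -2.79 to 0.337 for Hspa8, -2.18 to 0.361 for Hspd1 and -1.38 to 0.012 for Hspe1, the upper value each time without Ehmt2+/+ replicate 1. Between spot classes the 7 calls, all lower, became 8 higher with library sizes, 4 with factors above background, 1 with each spot thinned to 500 UMIs, and 1 to 7 with 1 section left out (1 without Ehmt2+/+ replicate 2, 2 without Ehmt2 fl/fl replicate 1, 1 without Ehmt2 fl/fl replicate 2). Hspb1 was called lower in each of those 4 fits. Over all genes the 3479 calls became 17414, 9340 and 760 under the first 3 of these settings. Without Ehmt2+/+ replicates 1 and 2 in turn, 16.7% and 9.89% of all genes were called. Without Ehmt2 fl/fl replicates 1 and 2 in turn, 9.38% and 8.23% were. Turned values with library sizes were Hsp90aa1 0.374, Hsp90ab1 0.038, Hspa8 0.295, Hsph1 0.411, Dnajb1 0.459, Hspd1 0.498 and Hspe1 0.42, and with factors above background Dnajb1 0.04 and Hspd1 0.078. Hspa1b, at 0.01, turned to -0.048 with DESeq2, and leaving out 1 section gave -0.048 to 0.110. Macrophage-marker-rich spots at 10% gave 2 calls in place of 0, and leaving out 1 section gave 0 in every region. The share of spots with a UMI, Ehmt2 fl/fl minus Ehmt2+/+, turned without thinning to -9.05 percentage points for Hsp90aa1, -5.31 for Hsp90ab1, -14.97 for Hspa8, -2.94 for Hsph1, -1.95 for Dnajb1, -9.27 for Hspd1 and -3.19 for Hspe1, and at 500 non-enzyme UMIs to -1.41 for Hsp90aa1, -9.25 for Hsp90ab1 and -2.93 for Hspa8. The causes of these changes were not tested, except that unthinned shares follow depth by construction. Hspb1 kept a fold change below 0 in both comparisons under all alternatives run. Depth limits Hspa1a most, at 62 to 144 UMIs a section.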
